A study of Caenorhabditis elegans with 2 samples.

Results

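The genes analysed here encode the proteins of the mitochondrial ribosome in the nematode Caenorhabditis elegans. They were chosen by symbol, as every protein-coding gene of the Ensembl WBcel235 annotation named mrpl- or mrps- followed by a number, which gave 70 of 19973 protein-coding genes. Of these, 41 carry the large-subunit prefix mrpl and 29 the small-subunit prefix mrps. RefSeq gave a protein product for all 70, and nearly all products are ribosomal proteins by name. mrps-27 is listed as an Ig-like domain-containing protein. The product of mrps-18C (uL3m, large subunit) belongs to the other subunit than the symbol says. That of mrpl-48 is named only as a uS10 domain-containing protein, which does not place it in the small subunit.

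The measurement was chromatin immunoprecipitation followed by sequencing (ChIP-seq) of AHA-1, the worm ortholog of ARNT. It used whole first-stage (L1) larvae of strain OP124, which has the genotype unc-119(ed3) III; wgIs124, pools males and females and carries an integrated transgene for AHA-1 fused to enhanced green fluorescent protein. Both replicates, 2 in number and biological per the labels, formed a single group, which leaves comparisons between promoters and between replicates. Animal age, read numbers and the control strain are not stated, and the labels do not say which promoter drives the fusion or in which cells it is made.

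Mitochondrial ribosomes translate the few respiratory chain subunits that the mitochondrial genome encodes. All of their proteins are made from nuclear genes in the cytosol and imported, so the nuclear and mitochondrial genomes have to be expressed in balance, and in C. elegans lowering mrps-5 or other members is known to induce the mitochondrial unfolded protein response and to lengthen life. AHA-1 pairs with other proteins of its bHLH-PAS family, among them HIF-1, which controls the response to low oxygen. Dimers of ARNT with HIF or with the aryl hydrocarbon receptor are known, from mammals, to bind the core words ACGTG and GCGTG.

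AHA-1 peaks of the authors' thresholded list lay in the promoter windows of 7 of the 70 genes, and the DNA at the centre of such peaks is shown for the 5 whose sequence is given, to let the core words be seen in place. A promoter window ran from 1000 bp upstream to 200 bp downstream of an annotated transcript start. Each line holds the summit and 50 bp to either side of it from the RefSeq genome (WBcel235, the same assembly as ce11), read 5′ to 3′ on the strand of the gene, with GCGTG or ACGTG, or their reverse complements CACGC and CACGT, in capitals. The spans are chrIV:4660453-4660553 for mrps-21, chrIV:14767850-14767950 for mrps-7, chrII:156082-156182 for mrpl-28, chrIII:10707213-10707313 for mrpl-12 and chrIII:1202368-1202468 for mrpl-45, with mrpl-12 on the plus strand and the others on the minus strand.
mrps-21: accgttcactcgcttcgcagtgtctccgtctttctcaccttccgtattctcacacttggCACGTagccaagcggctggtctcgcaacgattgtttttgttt
mrps-7: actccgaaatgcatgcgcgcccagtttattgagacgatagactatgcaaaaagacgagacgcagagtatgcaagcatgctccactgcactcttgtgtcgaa
mrpl-28: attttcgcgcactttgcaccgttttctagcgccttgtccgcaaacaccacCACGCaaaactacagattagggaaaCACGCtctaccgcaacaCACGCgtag
mrpl-12: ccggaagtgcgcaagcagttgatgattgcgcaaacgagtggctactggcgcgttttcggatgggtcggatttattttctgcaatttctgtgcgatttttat
mrpl-45: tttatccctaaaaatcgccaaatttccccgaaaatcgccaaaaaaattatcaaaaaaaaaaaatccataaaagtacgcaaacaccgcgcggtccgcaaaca

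The mrpl-28 window held GCGTG 3 times, the mrps-21 window held ACGTG 1 time, and neither word was in the windows of mrps-7, mrpl-12 and mrpl-45. Below the authors' threshold, core words were also present in the strong regions of mrps-17 (chrIII:6431896-6431996, minus strand), mrpl-49 (chrV:12728411-12728511, plus strand) and mrpl-1 (chrIV:7709814-7709914, minus strand), which follow in the same form.
mrps-17: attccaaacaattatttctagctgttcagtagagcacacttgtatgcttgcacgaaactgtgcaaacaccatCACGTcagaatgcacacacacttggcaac
mrpl-49: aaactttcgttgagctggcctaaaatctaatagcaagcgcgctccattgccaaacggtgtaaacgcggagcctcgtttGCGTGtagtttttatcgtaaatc
mrpl-1: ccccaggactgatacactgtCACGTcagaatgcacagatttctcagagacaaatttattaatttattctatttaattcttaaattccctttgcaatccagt

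In counts, 10% of the mitochondrial ribosomal protein genes had a thresholded promoter peak (7 of 70, exact binomial interval over genes 4.12 to 19.5%), beside 2.73% of all protein-coding genes. The 7 genes had 7 distinct peaks, some of which also lay in the windows of genes outside the list. They were 5 of the 41 mrpl genes (12.2%, interval 4.08 to 26.2%) and 2 of the 29 mrps genes (6.90%, interval 0.846 to 22.8%), and these intervals overlap over most of their length. The share of 10% beside 2.73% is a description of the list, without a test, and the intervals do not cover variation between animals. Pooled signal, the authors' value from the peak caller, was 45.7 at the strongest of these peaks and 18.4 at the weakest. The median of all 530 thresholded peaks was 26.9, so 3 of the 7 lay above it.

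**Figure D1:**
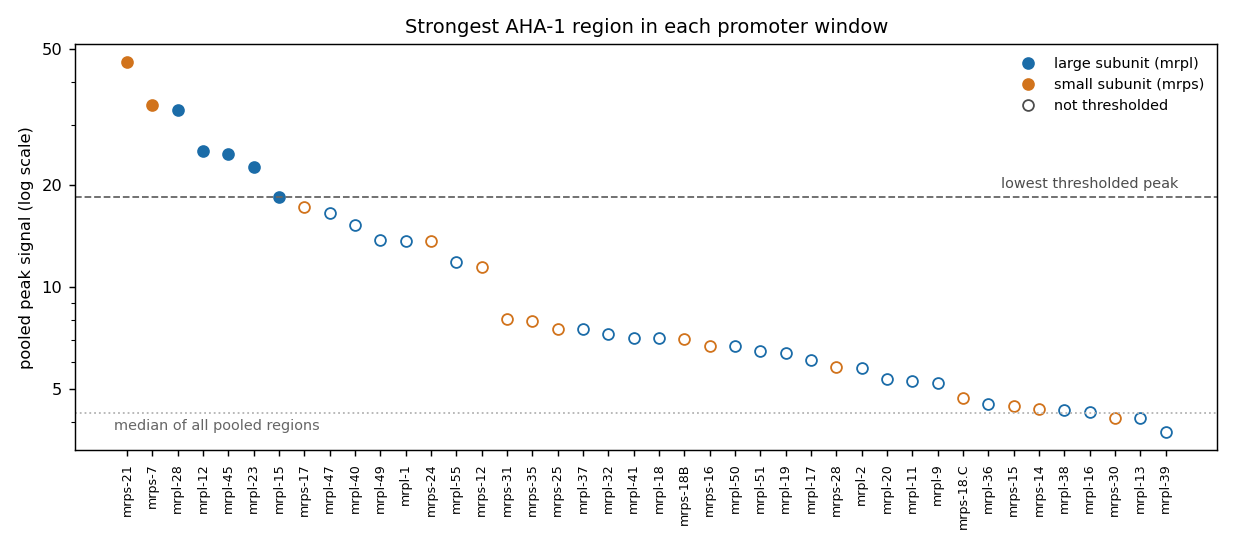
Pooled signal (log scale) of the strongest AHA-1 region in the promoter window of each of the 42 mitochondrial ribosomal protein genes that had one, in order of signal; 28 genes without a region are not drawn. Blue points are mrpl genes, orange points mrps genes and filled points thresholded peaks, and the 7 filled points lie between 18.4 and 45.7 above the dashed line.

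Among the small-subunit genes, the strongest peak was in the window of mrps-21, named for the bacterial small-subunit protein of that number. It spanned chrIV:4660345-4660660, with a pooled signal of 45.7 and rank 55 of 30000 regions. Replicate 1 gave it a signal of 29.1 (rank 68) and replicate 2 one of 19.4 (rank 45). The peak was high in both lists, but its summit lay 986 bp upstream of the mrps-21 start and only 302 bp upstream of F29B9.11, the gene that precedes mrps-21 on the same strand. It also lay in the window of jmjd-1.2, a histone demethylase gene known from the mitochondrial stress response, 488 bp upstream of that start.

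mrps-7, the counterpart of a bacterial protein that binds ribosomal RNA early in the assembly of the small subunit, had a peak over the intergenic sequence upstream of its start (chrIV:14767742-14768057, summit 170 bp upstream). The pooled signal was 34.3 and the rank 150. Replicate 1 gave 31.04 (rank 52), but replicate 2 gave 2.48 (rank 12568 of 18195 regions). The first placed this promoter near the top of its list and the second in the lower part. The other gene of this divergent pair is Y57G11C.3, whose start was 301 bp from the summit.

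Among the large-subunit genes, mrpl-28 had the strongest peak, at chrII:155974-156289. The summit lay 123 bp upstream of the start, in intergenic sequence and in no other protein-coding window. Pooled signal was 33.1 (rank 160), with 24.8 in replicate 1 (rank 117) and 6.75 in replicate 2 (rank 682). The protein is the counterpart of a bacterial large-subunit protein, bL28.

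mrpl-12 encodes the counterpart of the bacterial stalk protein that recruits translation factors to the ribosome. Its peak (chrIII:10707105-10707420) had a pooled signal of 25.1 and rank 300, and it was alike in the replicates in rank, with signals of 16.1 (rank 338) and 9.42 (rank 295). The summit was 498 bp upstream of mrpl-12 and nearer to the divergent Y39A1A.22, at 235 bp, and to Y39A1A.21, at 241 bp.

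mrpl-45, whose human counterpart (mL45) ties the ribosome to the inner mitochondrial membrane near the tunnel exit, had a peak at chrIII:1202260-1202575. Its pooled signal was 24.6 (rank 308), with 18.2 in replicate 1 (rank 259) and 6.22 in replicate 2 (rank 845). The divergent gene Y119D3B.12 was closer to the summit, at 128 bp, than mrpl-45, at 410 bp.

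The remaining peaks were on chromosome I. mrpl-23, whose bacterial counterpart sits at the exit of the polypeptide tunnel, had a peak from 6212685 to 6213000 with 22.6 in the pooled list (rank 353), and the replicates gave 13.6 (rank 459) and 8.84 (rank 332). This summit lay 958 bp upstream of mrpl-23, inside an intron of the preceding gene fars-1, a cytosolic phenylalanyl-tRNA synthetase gene, and 19 bp from the start of the snoRNA gene T08B2.13. mrpl-15, the counterpart of a bacterial large-subunit protein (uL15), had the weakest thresholded peak of the list, from 1435527 to 1435842, 594 bp upstream. Its pooled signal was 18.4 (rank 527), next to the threshold, with 15.1 in replicate 1 (rank 380). The strongest replicate 2 region in this window had 4.23 (rank 3007) and did not overlap the pooled peak.

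All 7 genes also had a region of rank 530 or better in replicate 1, and 3 of them, mrps-21, mrpl-12 and mrpl-23, had one in replicate 2 as well. Over the whole list, replicate 1 placed 7 genes in its top 530, beside 2.63% of all protein-coding genes, and replicate 2 placed 4, beside 2.31%; the fourth gene of replicate 2 was mrpl-55. Signals of the 22 genes with a region in both replicate lists had a Spearman correlation of 0.33 and a Pearson correlation of 0.50 between replicates. Over all 3166 protein-coding genes with a region in both lists these were 0.46 and 0.74. The correlations are across genes, which share the replicates' libraries and in part their peaks.

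**Figure D2:**
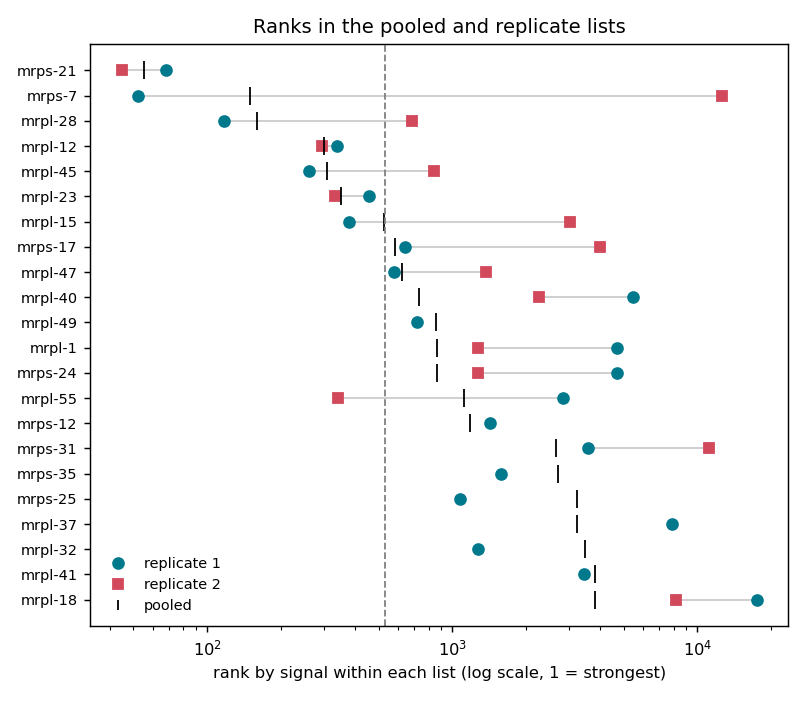
Rank by signal (log scale, 1 is the strongest) in the pooled list (black ticks), replicate 1 (circles) and replicate 2 (squares) for the 22 mitochondrial ribosomal protein genes of highest pooled signal; a missing symbol means no region in that list, and the dashed line is rank 530. The symbols of mrps-21, mrpl-12 and mrpl-23 lie close together, while those of mrps-7 run from rank 52 to rank 12568.

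A further 8 genes had a pooled region with a signal above 10 that the authors' threshold left out. The weakest of these, at mrps-12, scored above 94.7% of all protein-coding genes. No share over all genes is given for the count of 8 itself, so it describes the members alone. The strongest was that of mrps-17, the counterpart of a bacterial rRNA-binding protein of the small subunit (uS17), with 17.2 in the pooled list, 11.3 in replicate 1 and 3.87 in replicate 2. Its rank of 583 compares with 527 for mrpl-15, the last member inside the threshold. mrpl-47, which encodes uL29m, had a region over its start (signal 16.5, replicates 11.9 and 5.35). The mitochondria-specific mrpl-40 had 15.2 in the pooled list but ranked 5439 in replicate 1 and 2253 in replicate 2, with signals of 4.48 and 4.60.

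Several of these promoters were shared. mrpl-49, another mitochondria-specific protein gene, is divergent from rpl-28, a gene of the cytosolic ribosome, and the region between them (pooled signal 13.7) was listed in replicate 1 with 10.6 and not in replicate 2. mrpl-1, the counterpart of the protein of the bacterial ribosome's other stalk, and mrps-24, which encodes uS3m, are divergent from each other at a distance of 344 bp and had the same region, at 13.7 in the pooled list, 4.74 in replicate 1 and 5.47 in replicate 2. That region was closest to emc-6, at 128 bp. mrpl-55 had a pooled signal of 11.8, with 5.72 in replicate 1 (rank 2828) and 8.72 in replicate 2 (rank 343), and thus a higher rank in the second. mrps-12, whose bacterial counterpart acts in decoding, had 11.4 and was listed in replicate 1 with 7.61 and not in replicate 2.

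Weak regions are listed too: the pooled list of peaks and background starts at a signal of 2.88 and has a median of 4.27. In it, 42 of the 70 genes (60%) had at least 1 region in the window, beside 43.3% of all protein-coding genes. These were 27 mrpl and 15 mrps genes, scored by 41 distinct regions. Below the 15 genes above 10, the other 27 ran from 8.03 at mrps-31 down to 3.75 at mrpl-39, with no gene between 8.03 and the 11.4 of mrps-12. The lowest were mrpl-39 (replicate 1 signal 4.77), mrpl-13 (pooled 4.12, replicate 1 3.35) and mrps-30 (pooled 4.13, replicate 1 2.75), none of which was listed in replicate 2. Of these 42 windows, 22 held a region in both replicates, 16 in replicate 1 alone and 4 in replicate 2 alone. The strongest replicate region overlapped the pooled one in 36 windows for replicate 1 and in 23 for replicate 2. Over all 70 windows, replicate 1 listed a region in 42, beside 37.7% of all protein-coding genes, and replicate 2 in 31, beside 28.9%.

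Among 4 genes known from worm studies of mitochondrial stress and lifespan, mrpl-1 was in the upper range (13.7, above), mrpl-37 and mrpl-2 were in the lower one and mrps-5 had no region. mrpl-37, a mitochondria-specific protein gene, had a pooled signal of 7.50 at a summit nearer to the divergent lin-38 (210 bp) than to its own start (647 bp), a signal of 3.88 in replicate 1 and no region in replicate 2. mrpl-2, which encodes uL2, had 5.77 in the pooled list and 5.004 in replicate 2 alone. The mrps-5 window held no region in the pooled list or in either replicate. In all, 28 genes had no pooled region. Of these, 4 had a region in replicate 1 and 5 in replicate 2, none above a signal of 5.85, and 19 had none in any of the 3 lists (27.1%), beside 42.5% of all protein-coding genes.

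Ranked among all protein-coding genes by pooled signal, with genes lacking a region at 0, the 70 genes had a median percentile of 74.9, where the median of all protein-coding genes is 0. This contrast did not hold in every setting: the members' median was also 0 from replicate 2 alone, and when each summit counted for its nearest start alone. Of the 70, 17 (24.3%) were in the highest 10% of scores, which by construction holds 10% of all genes. The median was 80.9 for mrpl and 71.3 for mrps genes. Grouped by RefSeq product name, an arrangement made after the values were seen, the 32 genes with a bacterial counterpart in the name had 4 thresholded peaks and 19 regions, and the 19 mitochondria-specific ones had 1 and 11. Another 19 products carry no such name, with 2 thresholded peaks and 12 regions. Among all protein-coding genes the shares were 2.73% and 43.3%, and no difference between the groups was tested. The wording of the name alone set these groups. It placed mrpl-48 in the first for a uS10 domain, and mrps-21, mrpl-12 and mrpl-1 in the last although they have bacterial counterparts.

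Set beside related lists in the pooled regions and the main window, mitochondrial ribosomal protein genes scored between genes in general and the genes of the cytosolic ribosome. Of 78 cytosolic genes named rpl or rps, 33 had a thresholded peak (42.3%, interval 31.2 to 54.02%) and the median percentile was 96.6. Of 34 respiratory chain genes named nuo, cox, atp, ucr or cyc, 9 had such a peak (26.5%, interval 12.9 to 44.4%) with a median percentile of 88.7. This list was drawn by symbol prefix alone and was not limited to subunits of the chain. The interval of the cytosolic list and that of the mitochondrial one (4.12 to 19.5%) do not overlap, and that of the respiratory chain overlaps the latter. No test of these differences was made.

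**Figure D3:**
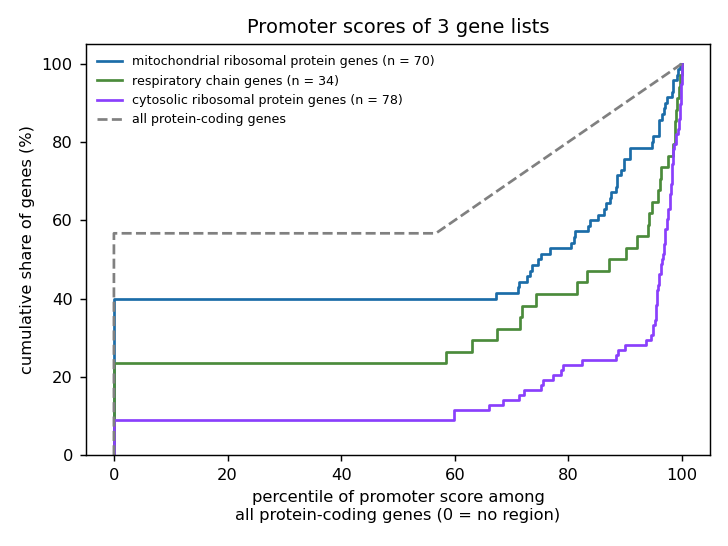
Cumulative share of genes (%) against the percentile of their promoter score among all 19973 protein-coding genes, where 0 means no pooled region, for the 70 mitochondrial ribosomal protein genes, 34 respiratory chain genes, 78 cytosolic ribosomal protein genes and all protein-coding genes (dashed). The mitochondrial curve lies between the dashed line and the other lists, with medians of 74.9, 88.7 and 96.6 for the 3 lists.

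Other genes of mitochondrial gene expression were few, which limits what their counts of thresholded peaks show. None of 12 mitochondrial aminoacyl-tRNA synthetase genes (of 14 symbols sought) had a thresholded peak, where 2.73% of all protein-coding genes had one. A pooled region was in the window of 8 (66.7%), where 43.3% of all genes and 60% of the mitochondrial ribosomal protein genes had one. The highest was that of ears-2, which encodes the glutamyl enzyme, at 14.5 in the pooled list, 8.44 in replicate 1 and 6.40 in replicate 2, followed by sars-2 (6.07) and aars-1 (5.05). Of 12 genes for mitochondrial translation and genome maintenance (of 16 symbols sought), 0 had a thresholded peak and 9 had a pooled region (75%, beside the same 43.3% and 60%). The highest were mtss-1, the single-stranded DNA-binding protein gene (10.9), tufm-2, an elongation factor gene (9.25), and mma-1, an LRPPRC-like gene (8.35). The genes of the mitochondrial RNA polymerase, rpom-1, and DNA polymerase, polg-1, had no region. A count of 0 of 12 leaves an interval reaching 26.5%. That includes both the background of 2.73% and the 10% of the mitochondrial ribosomal protein genes, so it separates these lists from neither.

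Mitochondrial import and stress genes had 2 of 15 (13.3%, interval 1.66 to 40.5%), beside the background of 2.73%. These were hsp-60, the mitochondrial chaperonin gene (pooled signal 59.8, replicates 42.1 and 17.5, summit 616 bp upstream and nearer to Y22D7AL.10), and tomm-20, an outer membrane import receptor gene (33.04, replicates 27.8 and 5.78, summit 273 bp upstream). The interval of this list includes the 2.73% of the background and the 10% of the mitochondrial ribosomal protein genes. It separates the list from neither. After hsp-60 and tomm-20, the next by signal were timm-23 (14.3), phb-1 (12.8) and clpp-1 (11.9). The stress factor genes atfs-1 and dve-1 had 6.62 and 6.73, and haf-1, lonp-1 and spg-7 had no region. In all, 12 of the 15 genes had a pooled region (80%), beside 43.3% of all protein-coding genes. The highest 10% of scores held 7 of the 15 (46.7%).

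Most scoring summits of the mitochondrial ribosomal protein genes lay shortly upstream of the start. Over the 42 genes with a region, the median position was -266 bp, with quartiles at -439 and -165 bp, and 22 summits were within 300 bp of the start. The same median over all protein-coding genes with a region was -308 bp, with quartiles at -608 and -107 bp. The window reaches farther upstream than downstream, which in part sets these values. Of the 42 summits, 24 were intergenic, 7 in a UTR, 7 in a coding exon and 4 in an intron, neighbouring genes included. Another protein-coding start was closer for 14 of the 42, and 21 summits lay in the window of at least 1 other gene. Shares over all protein-coding genes are not given for these classes and counts, so they cannot be read as particular to the members. Among the 7 thresholded peaks, 3 were nearer to another start, those in the windows of mrps-21, mrpl-12 and mrpl-45.

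**Figure D4:**
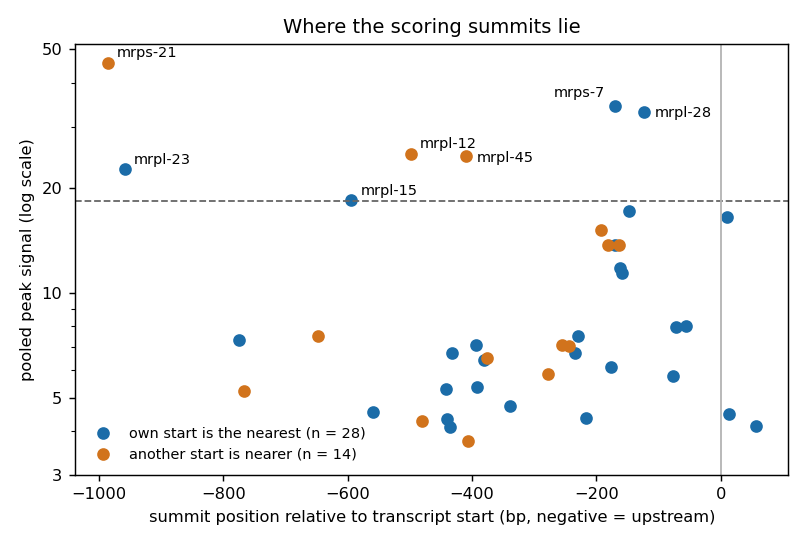
Pooled signal (log scale) against the position of the scoring summit relative to the transcript start (bp, negative is upstream) for the 42 genes with a region; blue points have their own start nearest (28 genes) and orange points have another protein-coding start nearer (14 genes). The dashed line is the lowest thresholded signal, and the 7 thresholded peaks above it are spread from 986 to 123 bp upstream.

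The mitochondrial ribosomal protein genes sit close to other genes. A divergent protein-coding start within 1000 bp upstream was found for 26 of the 70 (37.1%), beside 17.7% of all protein-coding genes. Of these 26 members, 3 had a thresholded peak (11.5%), beside 7.40% of all genes with a divergent start, and 19 had a pooled region (73.1%, beside 53.1%). None of the 70 genes is on the X chromosome, which holds 13.7% of protein-coding genes.

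A same-strand protein-coding gene ended within 1000 bp upstream of 35 of the 70 (50%), beside 30.1% of all protein-coding genes. In 21 of these 35 the gap was under 130 bp, the kind of spacing known in C. elegans from operons, where several genes are transcribed from the promoter of the first. Operon annotation was not used here, so these are called runs. Their own windows held thresholded peaks in 2 of 35 cases, at mrps-21 and mrpl-23, beside 2.00% of all genes so placed. A pooled region was in 16 of these 35 windows (45.7%), beside 40.1% of all genes so placed. Of the 28 members without a region, 19 were in such a run (67.9%), beside 31.8% of all protein-coding genes without a region.

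When the run was followed upstream to its first gene, that gene had a pooled region in 30 of the 35 cases (85.7%) and a thresholded peak in 7 (20%). Over the 6007 protein-coding genes with a same-strand neighbour of this kind, the first gene had a region for 47.7% and a thresholded peak for 4.96%. The 35 members lead to 34 first genes, since mrps-2 and mrpl-4 both follow natc-1 (signal 6.92). Besides F29B9.11 upstream of mrps-21, the first genes with a thresholded peak were rpn-3, a proteasome gene upstream of mrpl-32 (34.5), atp-2, the ATP synthase beta subunit gene that begins the run of mrps-26 (29.7), and nrde-2, a nuclear RNA interference gene upstream of mrps-14 (28.7). The others were misc-1, a mitochondrial carrier gene upstream of mrpl-41 (22.3), clsp-1 upstream of mrpl-54 (21.3) and W04D2.4 upstream of mrps-11 (20.96). Relative to the first gene's start, summits lay at -940 bp for nrde-2 and -790 bp for misc-1. The others lay between -320 and -148 bp. The atp-2 peak was nearest to C34E10.10 and that of F29B9.11 to its own start, and the nearest start is not given for the rest. The gap in front of the member was 410 bp for mrpl-32, 373 bp for mrpl-54 and 235 bp for mrpl-41. It was under 130 bp for the rest. Whether these peaks act on the members was not tested.

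The replicates gave 22.2 and 11.5 at rpn-3, 18.0 and 12.3 at atp-2, 20.8 and 6.33 at nrde-2, 14.1 and 8.34 at misc-1, 12.3 and 8.37 at clsp-1, and 16.2 and 4.93 at W04D2.4. Each of these 6 windows held a region in both replicates. Of the 19 members of runs without a region of their own, 17 had a first gene with a region and 3 one with a thresholded peak, namely mrps-26, mrpl-54 and mrps-11. The first gene of the mrps-5 run is sel-1, with a signal of 7.22. Counting a thresholded peak at either place, 13 of the 70 members had one (18.6%), beside 4.12% of all protein-coding genes. In the opposite direction, the own window was the stronger for 9 members, among them mrpl-23 (22.6 against 9.73 at fars-1), mrps-12 (11.4 against 3.73 at num-1) and mrpl-50 (6.69 against 3.07 at cct-2).

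**Figure D5:**
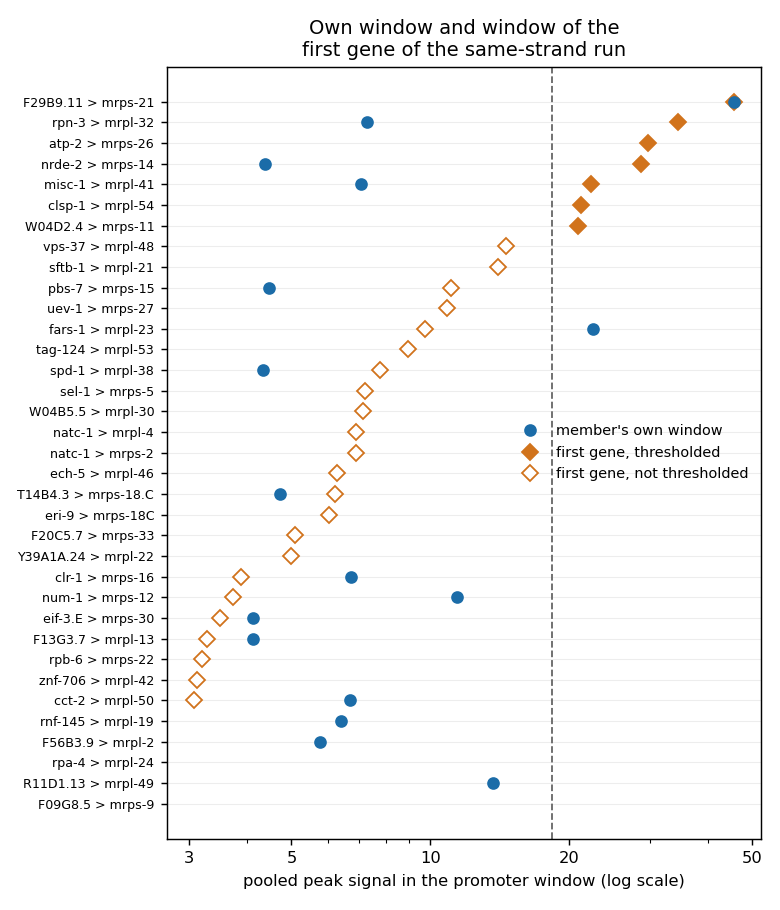
Pooled signal (log scale) in the member's own promoter window (blue circles) and in that of the first gene of its same-strand run (orange diamonds, filled where thresholded) for 35 mitochondrial ribosomal protein genes, labelled with the first gene and then the member. A missing symbol means no pooled region, and the dashed line is the lowest thresholded signal; 7 diamonds are filled and 16 circles are present.

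Core words were compared within 50 bp of each summit on both strands. Of the 41 regions that score the mitochondrial ribosomal protein genes, 14 held GCGTG or ACGTG (34.1%, interval 20.1 to 50.6%). The same words were in 42.3% of all 530 thresholded peaks, in 15.1% of all 30000 pooled regions and in 18.02% of the pooled regions in promoter windows. Each member region was the strongest of its window, and members with a region had a median signal of 7.07. The median of all pooled regions was 4.27, and the words were more frequent in the stronger, thresholded peaks. These shares, and those of each word below, therefore do not compare regions of like signal. GCGTG alone was in 8 member regions (19.5%), those of mrpl-28, mrpl-15, mrpl-40, mrpl-49, mrps-31, mrpl-18, mrpl-17 and mrps-28, beside 27.2% of thresholded peaks and 8.98% of promoter regions.

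ACGTG was in 6 member regions (14.6%), beside 19.8% of thresholded peaks and 10.1% of promoter regions. They scored mrps-21, mrps-17, mrpl-50, mrpl-19, mrpl-9 and the pair mrpl-1 and mrps-24. In mrpl-50 and mrpl-19 it was part of CACGTG, the palindromic E-box that Myc-like and TFEB-like factors are known to bind and that contains ACGTG on both strands; CACGTG was in 4.72% of thresholded peaks. Among the 7 thresholded member peaks, 3 held a core word, those of mrps-21, mrpl-28 and mrpl-15. A match describes these letters in this window and does not show which protein was bound.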

How the data were processed

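Peak lists of AHA-1 ChIP-seq from 2 biological replicates of 1 group of L1 larvae were used, with replicate numbers and a fragment size range of 150 to 350 bp per the labels. The authors deposited relaxed lists of peaks and background for each replicate (24611 and 18195 regions) and for both pooled (30000 regions), and 530 peaks thresholded from them by the irreproducible discovery rate, all on ce11. The signal value of each peak is as the authors deposited it, relative to a control, on a scale not stated; it was used to describe and rank regions within a list, so signals of different lists are not on a common scale. The deposited −log10 q-value was not used for ranking, because all thresholded peaks share the same value. Aligner, peak caller, read depth and threshold are not given in the sources used here, so no interval for counting error in reads is given, and lists on ce10 were not used here. Nothing says how the replicates were grown.

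Summits (1-based) were compared with transcript starts from Ensembl release 115, which uses this assembly. Sequence and product names are from RefSeq WBcel235, in which 99.9% of 31805 annotated start codons read ATG. A gene was scored by its strongest region with a summit from 1000 bp upstream to 200 bp downstream of any annotated transcript start, and a replicate's value is its own strongest region in that window; this was tested on simulated peaks at known places. A same-strand neighbour ends within 1000 bp upstream, with an overlap of up to 200 bp allowed. Across all genes the shares are descriptions; intervals are exact (Clopper-Pearson) at 95% over genes or regions, and no p-value was computed. Members, lists and settings were chosen with earlier results of these data known. Genes named are all members with a thresholded peak, the next by signal up to 15, the 3 lowest, mrps-5, mrpl-1, mrpl-2 and mrpl-37. Of each other list they are those with a thresholded peak and up to 3 by signal. Further genes named from those lists fall outside this rule and were named with their values known. Members named under positions, runs and words follow from those counts and were chosen after their values were seen. Of 14 synthetase, 16 translation and genome, and 15 import and stress symbols, 12, 12 and 15 matched a gene. Python 3.11.15, NumPy 2.4.6 and SciPy 1.17.1 were used. Alternatives were other windows, starts, assignments and thresholds and each replicate alone.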

Additional observations from a re-analysis of the deposited data

How the results depend on the processing

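The count of 7 members (10%) with a thresholded promoter peak was the same with a window of 2000 bp upstream and 500 bp downstream, beside 3.44% of all protein-coding genes. It was also 7 with outermost starts only (beside 2.59%) and with whole peaks that overlap the window by at least 1 bp (beside 2.92%). It was 4 (5.71%, beside 2.14% of all protein-coding genes) with 500 bp upstream and 100 bp downstream, which leaves out mrps-21, mrpl-23 and mrpl-15. It was also 4 (beside 1.86%) when a summit counted for the nearest start alone, and 3 (beside 1.34%) among the 265 strongest peaks. Taking each replicate's top 530 regions, it ranged from 4 without replicate 1 (beside 2.31%) to 7 without replicate 2 (beside 2.63%). In both were 3 of the 70 members, beside 272 of all 19973 genes, a setting chosen after seeing the data. Members with any region numbered 29 to 51 over all settings. With nearest starts only they were 29 (41.4%, beside 36.99% of all genes, against 60% beside 43.3%), without replicate 1 they were 31 (44.3% beside 28.9%) and without replicate 2 they were 42 (60% beside 37.7%). The median percentile ran from 0 without replicate 1 to 77.2 without replicate 2 and was 0 with nearest starts only, since under those settings fewer than 35 members have a region, and 71.8 to 78.2 in the other planned settings. Adding mrpl-58 and dap-3, also chosen after seeing the data, left the count at 7. Core words were in 14 of 41 regions (34.1%, beside 18.02% of promoter regions and 42.3% of thresholded peaks). With 100 bp to either side they were in 20 (48.8%), beside 30.3% of promoter regions and 56.4% of thresholded peaks. The synthetase, translation and genome, and import and stress lists together had 2 thresholded peaks, both in the last, and 1 with the narrower window. No paired analysis was possible because there is 1 group. The number of reads, which is unknown, limits what the absence of a region shows.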

Other observations

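Aside from the core words, 2 longer stretches recurred at the summits of mitochondrial ribosomal protein genes; both were noticed after the sequences had been printed, and no test was made. The longest stretch shared by any pair of the 41 member windows was a 17 bp one, TGTGCATTCTGACGTGA. It lay at chrIII:6431909-6431925, upstream of mrps-17, and at chrIV:7709879-7709895, between mrpl-1 and mrps-24. It contains ACGTG. Of all 30000 pooled regions, these were the 2 that held it within 50 bp of the summit. It was picked because these windows share it, so that count does not show that it is particular to them. The 6 nuclear chromosomes hold it 10 times, 7 of them within 1000 bp of a protein-coding start. The share of the genome so near a start is not given, so this count does not show a preference for starts.

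The word GCAAACACC, sought on both strands, was in 5 of the 41 member windows (12.2%), those of mrpl-28, mrpl-45, mrps-15, mrps-16 and mrps-17. It was in 2.08% of the 530 thresholded peaks, 0.340% of all pooled regions and 0.714% of the pooled regions in promoter windows. The word was picked because it recurred in the member windows. The higher share there is in part set by that choice and does not show that the word is particular to them. In the windows of mrpl-28 and mrps-17 2 bases separated it from a core word, as the printed sequences show.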
